A study of Mus musculus with 14 samples.

Results

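The cytosolic ribosomal protein genes, which encode the protein part of the ribosome, were taken by name from the mouse forebrain expression tables. A gene was a member when its symbol was Rpl or Rps followed by a number and any suffix, or Rplp0, Rplp1 or Rplp2. Ribosomal S6 kinases, the S19 binding protein and rows named as pseudogenes (-ps) were left out. The rule found 94 members among 56941 gene IDs, 37 of the small subunit (Rps) and 57 of the large subunit (Rpl and Rplp). Of these, 76 are standard subunits and 18 are paralogs or retroposed copies, such as Rps27l, Rpl22l1 and Rps23rg1. Proteins of the ribosome with other kinds of names, such as Rpsa, Fau and Rack1, fall outside the rule and are given apart.

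The series is bulk RNA-seq of polyadenylated RNA from whole tissue. At embryonic day 18.5 (E18.5) the tissue was cerebral cortex and the groups were dcKO (n = 4) and ff (n = 4). At embryonic day 12.5 (E12.5) it was telencephalon, with dcKO (n = 3) and ff (n = 3). Per the series' design text, dcKO stands for a double conditional knockout of Sbno1 and Trp53, from crosses of mice with floxed alleles of each to the Emx1-Cre driver line. The label ff is not spelled out in the sources used here. The series text compares the knockout with floxed controls, and the control columns are named dfl. Whether the control embryos carried a Cre is not said. Sbno1 is related to strawberry notch of the fly, and Trp53 encodes the tumour suppressor p53. Emx1-Cre is active in progenitors of the dorsal telencephalon and their progeny, so interneurons from ventral sources, blood, vessels and microglia in the same tissue are not targeted by the driver.

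A ribosome holds a single copy of nearly every subunit protein (the acidic stalk proteins are the known exception), and cells make the subunits in matched amounts. Their mRNAs begin with a C followed by a run of pyrimidines, the 5′ terminal oligopyrimidine (TOP) motif, through which the mTORC1 kinase pathway and the protein LARP1 control how strongly they are translated. When ribosome assembly is disturbed, free Rpl5 and Rpl11 in complex with 5S rRNA bind Mdm2, the ubiquitin ligase of p53, and p53 accumulates. The mRNAs are short and abundant, and the genome holds many processed pseudogenes of them.

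Promoter windows were looked up in RefSeq (GRCm38.p6), which had an entry for 67 of the 94 members. The 40 bases around the annotated start, 20 before it and 20 from it on, are shown for 4 standard subunits whose annotated start begins with the motif and for 2 members whose start does not, since they recur among the results. Capitals mark the C at the start and the pyrimidines that follow it.
Rps15a: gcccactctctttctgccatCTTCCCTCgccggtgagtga
Rps6: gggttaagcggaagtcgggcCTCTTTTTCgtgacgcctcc
Rpl15: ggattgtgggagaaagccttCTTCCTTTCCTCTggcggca
Rps10: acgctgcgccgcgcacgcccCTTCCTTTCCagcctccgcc
Rpl5: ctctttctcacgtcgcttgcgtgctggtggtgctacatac
Rpl7l1: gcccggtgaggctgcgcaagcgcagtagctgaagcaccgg
The windows lie at chr7:118116128-118116167 (Rps15a, minus strand), chr4:86857348-86857387 (Rps6, minus strand), chr14:18270967-18271006 (Rpl15, minus strand) and chr17:27635225-27635264 (Rps10, minus strand). Those of Rpl5 and Rpl7l1 lie at chr5:107900508-107900547 (plus strand) and chr17:46782637-46782676 (minus strand). A C followed by at least 4 pyrimidines stood exactly at the annotated start of 13 of the 56 standard subunits with an entry (23.2%), against 3.01% of the 27025 genes in the table. For Rpl5 a run of pyrimidines lay upstream of the annotated start, and no match says only that these letters were not at that base. The letters CGGAAG, the core of binding sites of ETS family factors, occurred on either strand in the 300-base window (250 before the start and 50 from it on) of 39 of these 56 genes (69.6%). The same letters occurred in 18.78% of all genes in the table. AAGATGG, part of the YY1 site, occurred in 9 of the 56 (16.1%) and in 7.28% of all genes. These matches describe the letters in the windows and say nothing of binding in this tissue.

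The libraries held 42.0 M to 81.96 M counts (M, 1000000), except dcKO replicate 1 at E18.5 (5.98 M) and ff replicate 1 at E12.5 (4.92 M). Sbno1 had 18.78 to 26.2 TPM (transcript abundance scaled for length and library) in dcKO and 14.7 to 18.4 TPM in ff at E18.5, so it was not lower in the libraries labelled dcKO, and 13.5 to 17.4 TPM in dcKO and 22.3 to 28.4 TPM in ff at E12.5. Trp53 had 69.8 to 84.0 TPM in dcKO and 79.5 to 86.8 TPM in ff at E18.5, with overlap. Its log2 fold change there was -0.20 (SE 0.06, edgeR adjusted p = 0.032). At E12.5 it had 109 to 112 TPM in dcKO and 114 to 143 TPM in ff, without overlap. The log2 fold change was -0.23 (SE 0.09, edgeR adjusted p = 0.22). These values cover whole genes, and the deleted parts were not resolved. Because Sbno1 was not lower, directions at E18.5 are given for the libraries labelled dcKO. Whether these columns are labelled correctly was not resolved. The group labels at both stages rest on the column names. The stage, number and genotype of each column stand in a sample title, but the descriptions of most samples conflict with this. Every dcKO library was male, and ff replicates 2 and 4 at E18.5 and ff replicate 3 at E12.5 were female, as read from Xist and chromosome Y genes. The labels do not tie libraries to litters or batches, and p-values measure the spread between these libraries. The dcKO replicates 2 and 3 at E12.5 were more alike in their counts than any other pair of libraries in a group. Their chi-square per degree of freedom lay far below that of every other pair (16.6 or more). Whether they are independent samples was not tested. Their small spread enters the p-values at E12.5, between the stages and of the interaction.

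Ribosomal protein mRNAs made up a large part of the transcripts in every library. Their summed TPM, as a percent of all TPM, was 9.501, 11.4, 9.86 and 9.43 in the libraries labelled dcKO and 10.4, 10.5, 11.5 and 10.6 in ff at E18.5. At E12.5 it was 12.7, 13.2 and 13.3 in dcKO and 12.9, 12.2 and 13.9 in ff. All 8 libraries of E18.5 were below all 6 of E12.5, and at each stage dcKO and ff overlapped. As a share of counts the members took 2.62% to 3.24% in dcKO and 2.80% to 3.30% in ff at E18.5, and 3.80% to 4.24% in dcKO and 3.37% to 4.20% in ff at E12.5. TPM divides by transcript length and the share of counts does not. The median standard subunit had an effective length, taken as the ratio of deposited count to deposited TPM, of 0.194 times that of the median gene, and the range was 0.0679 to 0.540. The ratio of small to large subunit TPM over the standard subunits was 0.727 ± 0.00891 in dcKO and 0.741 ± 0.00705 in ff at E18.5 (SD, n = 4 each), and 0.763 ± 0.00583 in dcKO and 0.763 ± 0.0110 in ff at E12.5 (SD, n = 3 each).

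**Figure D1:**
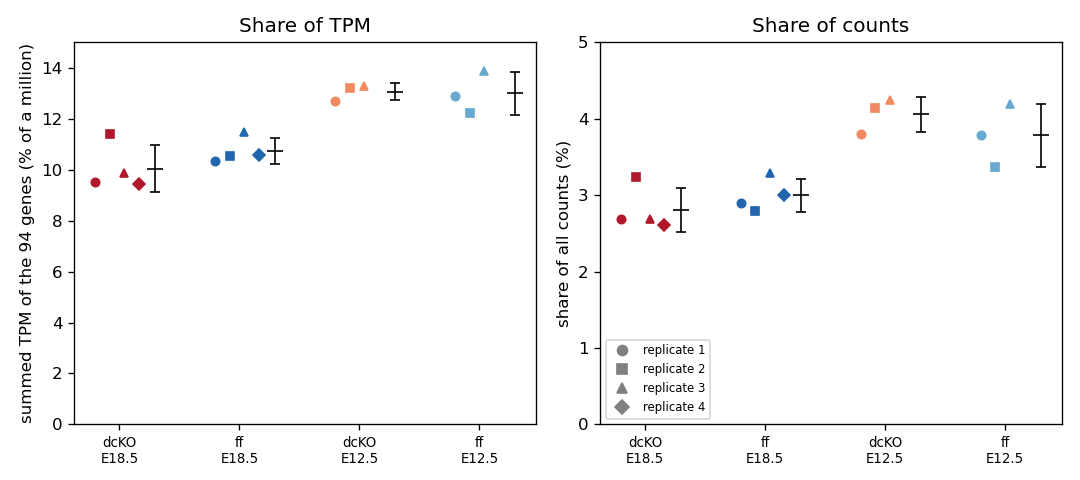
Summed TPM of the 94 genes as a percent of all TPM (left) and their share of all counts in percent (right), by library. Symbols are libraries, and the black bar is the group mean with its SD (n = 4 at E18.5, n = 3 at E12.5). The dcKO replicate 2 at E18.5, at 11.4% of TPM, stands above the other 3 libraries labelled dcKO, and all E18.5 libraries lie below those of E12.5.

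Among the standard subunits, levels in TPM spanned 7.68-fold in dcKO and 7.48-fold in ff at E18.5, and 8.74-fold in dcKO and 8.18-fold in ff at E12.5. Rpl41, which encodes the smallest ribosomal protein, was the highest member in each of the 4 groups, and Rpl35, of the large subunit, the lowest standard subunit in each. Rpl41 had 2997, 4655, 2981 and 3242 TPM in dcKO and 2896, 2680.4, 3498 and 3171 TPM in ff at E18.5, and 5071, 4892 and 4907 TPM in dcKO and 4012, 3762 and 4577 TPM in ff at E12.5. The groups overlapped at E18.5, where dcKO replicate 2 stood apart, and did not overlap at E12.5. Rpl35 had 488, 555, 417 and 346 TPM in dcKO and 389, 350.1, 464 and 434 TPM in ff at E18.5, also with overlap. Rpl10l and Rps12l1 were listed at 0 in all 14 libraries. Rpl3l, the muscle paralog of Rpl3, reached at most 0.22 TPM in any library, and Rpl39l, a paralog of Rpl39 known from testis, at most 1.39 TPM. A filter on low counts kept 87 members for testing at E18.5 and 89 at E12.5. The members it removed were Rpl10l, Rpl32l, Rpl3l, Rps12l1 and Rps3a3, and at E18.5 also Rpl39l and Rps23rg1.

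At E18.5, 28 of the 87 members tested were lower in the libraries labelled dcKO than in ff and none was higher, at an adjusted p under 0.05 (edgeR quasi-likelihood test, Benjamini-Hochberg over all 17974 genes tested). Of all genes tested, 16.6% were lower and 15.6% higher by the same rule. At an unadjusted p under 0.05 the members numbered 47, against 43.0% of all genes. The median log2 fold change of the members was -0.19, against 0.03 for all genes, and 5 of 87 were above 0. The calls fell on 12 of 30 small subunit members, 14 of 43 large subunit members, 0 of 3 stalk proteins and 2 of 11 paralogs tested. Counts scaled by library size and TMM (CPM) of every library labelled dcKO lay below every ff library for 19 of the 87, against 17.2% of all genes.

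The count of calls rested on single libraries. Without dcKO replicate 2, 63 members were lower (2820 of 18262 genes). Without dcKO replicate 4 there were 16 (2358 of 18242 genes), and without dcKO replicate 3 there were 17 (2694 of 18271 genes). Without ff replicate 3 there were 18 (2699 of 18270 genes). Replicate 2 was the highest of the 4 libraries labelled dcKO for 73 of the 76 standard subunits, and ff replicate 3 was the highest of ff for 75, so the members moved together from library to library. Libraries scaled by their totals alone gave 13 lower calls, 1 higher call (Rps2) and a member median of -0.08. With this scaling 1629 of 17974 genes were lower and 4756 higher, and the median of all genes was 0.13. Relative to the median of all genes, the members' median was -0.22 with either scaling. Of the 28 calls, 13 were made under all 19 alternatives: Rpl4, Rpl5, Rpl7, Rpl7l1, Rpl10, Rpl11, Rpl22, Rpl23a, Rpl37a, Rps4x, Rps15, Rps15a and Rps23.

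**Figure D2:**
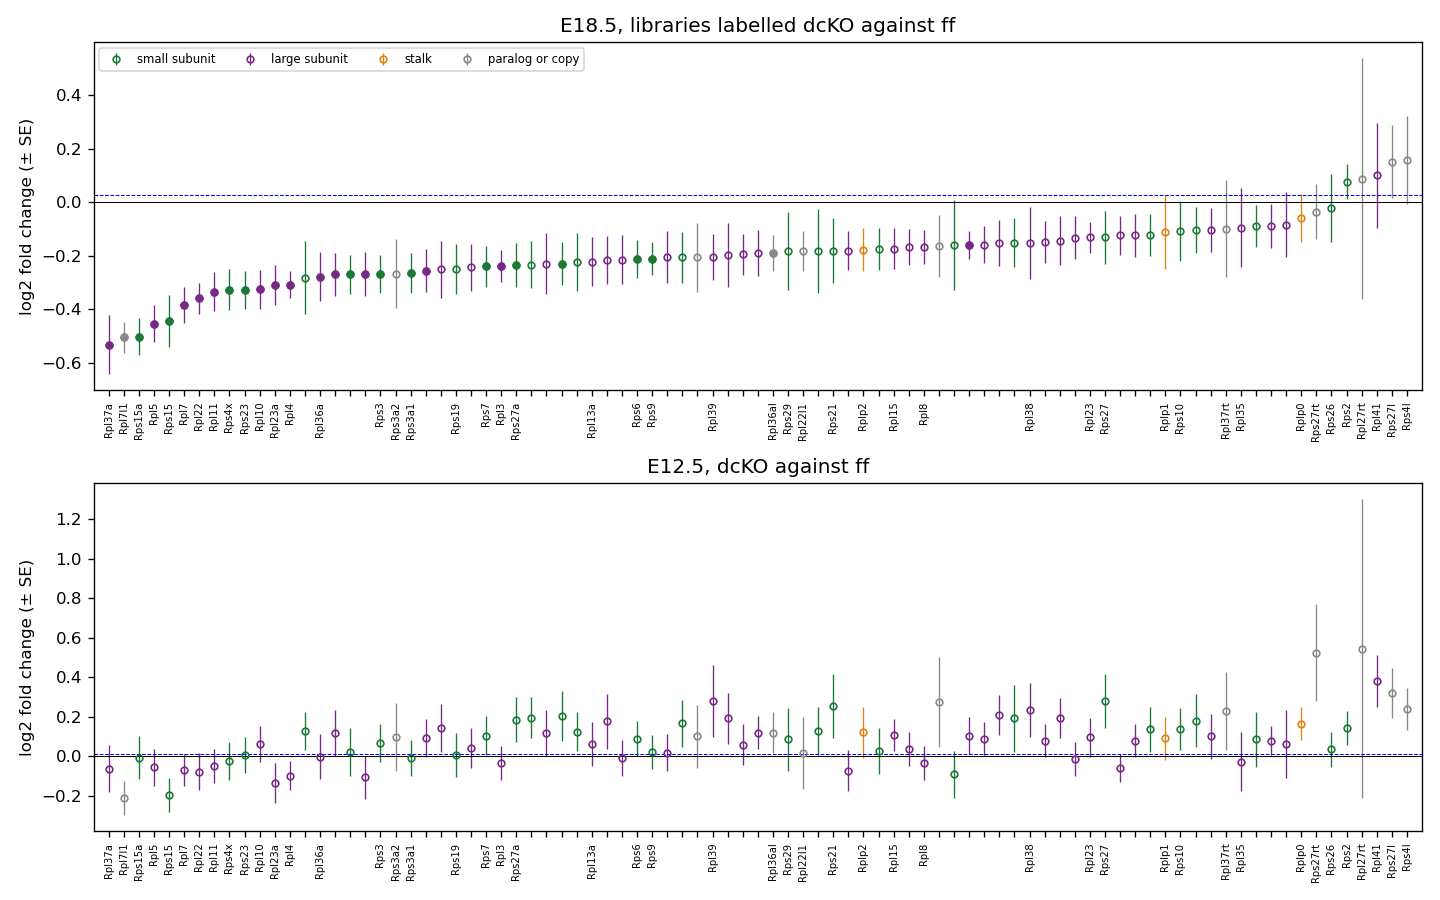
Log2 fold change of each member tested at E18.5, with its SE, in the libraries labelled dcKO against ff (top) and in dcKO against ff at E12.5 (bottom), ordered by the E18.5 value and coloured by role, with symbols for members named in the text. Filled points passed an adjusted p under 0.05 in edgeR, and the dashed line is the median of all genes. At E18.5, 82 of 87 members lie below 0, and at E12.5 no point is filled.

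The 2 members that bind Mdm2 together with 5S rRNA were both lower at E18.5. Rpl5 (ENSMUSG00000058558.13) had 644, 777, 725 and 686 TPM in the libraries labelled dcKO and 859.6, 816, 899 and 890.2 TPM in ff. Every library labelled dcKO was below every ff library (log2 fold change -0.45 ± 0.07 SE, edgeR adjusted p = 0.00043). Rpl11 (ENSMUSG00000059291.16) had 1003, 1133, 1056 and 1021 TPM in dcKO and 1161, 1206, 1324 and 1233 TPM in ff, again without overlap (log2 fold change -0.34 ± 0.07 SE, edgeR adjusted p = 0.0038). Rpl23, which also binds Mdm2, had 1063, 1099, 1052 and 1038 TPM in dcKO and 1053, 1036, 1123 and 1066 TPM in ff, and the groups overlapped (log2 fold change -0.13, edgeR adjusted p = 0.11). Of the 12 genes of the list of Mdm2-binding ribosomal proteins and the p53 loop, 6 were lower at E18.5 (Rpl5, Rpl11, Rps3, Rps7, Ccng1 and Trp53) and 1 was higher (Mdm4, a partner of Mdm2 that restrains p53). Of all genes, 16.6% were lower and 15.6% higher. The median of this list was -0.22, against 0.03 for all genes. The list holds Rpl5, Rpl11, Rpl23, Rps3, Rps7, Rps14 and Rps27l, which are members, and Trp53, a targeted gene. Its count and median thus repeat member values in large part. Mdm2 itself had a log2 fold change of 0.12 (SE 0.05, edgeR adjusted p = 0.091).

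Other standard subunits of the large and small subunit showed differences of similar size at E18.5. Rps15a, a small subunit protein whose start is printed above, had 1057, 1239.8, 1130.0 and 978 TPM in the libraries labelled dcKO and 1316, 1372, 1448 and 1355 TPM in ff. No library of dcKO reached the lowest of ff (log2 fold change -0.50 ± 0.07 SE, edgeR adjusted p = 0.0002). Rpl37a, of the large subunit, had the lowest log2 fold change of all members at -0.53 (SE 0.11, edgeR adjusted p = 0.0048), with 865, 1074, 885 and 849 TPM in dcKO and 1200.4, 1173, 1387 and 1243 TPM in ff. Here too the groups did not overlap, and dcKO replicate 2 was nearest to ff. Rps15, a small subunit protein, had 1690.1, 1977, 1620.5 and 1623 TPM in dcKO and 2084, 2186, 2443 and 2145 TPM in ff, without overlap (log2 fold change -0.45 ± 0.10 SE, edgeR adjusted p = 0.0053). Rpl4 had 1032, 1072, 1081 and 1075 TPM in dcKO and 1201, 1217, 1215 and 1208 TPM in ff, without overlap (log2 fold change -0.31 ± 0.05 SE, edgeR adjusted p = 0.00059). For Rpl3, part of the peptidyl transferase region, the log2 fold change was -0.24 (SE 0.06, edgeR adjusted p = 0.0096). For Rpl10, which joins the large subunit late in its maturation, it was -0.33 (SE 0.07, edgeR adjusted p = 0.0052). Rps4x, of the small subunit, had the same value (-0.33 ± 0.08 SE, edgeR adjusted p = 0.0062). Rpl10, Rps4x, Rpl36a and Rpl39 lie on the X chromosome, and with sex as a covariate the calls of Rpl10 (edgeR adjusted p = 0.015) and Rpl36a (edgeR adjusted p = 0.031) were still made, and Rps4x was called under all 19 alternatives.

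Rpl22, a large subunit protein that the ribosome can do without, had a call in counts but overlapping TPM. Its counts gave a log2 fold change of -0.36 at E18.5 (SE 0.06, edgeR adjusted p = 0.0006), with a call in all 19 alternatives. Its TPM were 575, 520.4, 484 and 444 in the libraries labelled dcKO and 511, 515, 539 and 521 in ff, and these overlap (2-sided exact permutation test on log2(TPM + 1), p = 0.63, where the smallest p possible is 0.029). TPM divides by an effective length estimated in each library, and counts do not. For the paralog Rpl22l1, which stands in for Rpl22 when Rpl22 is lost, TPM were 227, 260.5, 245 and 213 in dcKO and 259.9, 277, 272 and 253 in ff (log2 fold change -0.18, edgeR adjusted p = 0.078).

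Further members chosen by role were examined at E18.5. Rps19 and Rps26, both mutated in Diamond-Blackfan anaemia, had log2 fold changes of -0.25 (SE 0.09, edgeR adjusted p = 0.058) and -0.02 (SE 0.13, edgeR adjusted p = 0.92). Rps6, the substrate of the S6 kinases, was called at -0.21 (SE 0.07, edgeR adjusted p = 0.037). Its TPM overlapped, at 1017, 1196, 1082 and 1046 in dcKO and 1132, 1152, 1207 and 1178 in ff. Rps3, a small subunit protein at the mRNA entry site, was called at -0.27 (SE 0.07, edgeR adjusted p = 0.012). Rpl38, known for its part in translating Hox mRNAs in the mouse, had -0.15 (SE 0.14, edgeR adjusted p = 0.43), Rpl39 had -0.20 (SE 0.09, edgeR adjusted p = 0.088), and Rpl13a had -0.22 (SE 0.09, edgeR adjusted p = 0.082). The stalk proteins Rplp0, Rplp1 and Rplp2, which recruit elongation factors, had values of -0.06, -0.11 and -0.18, none of them called.

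The paralogs differed among themselves at E18.5. Rpl7l1, a paralog of Rpl7 that takes part in making the large subunit, had 51.5, 53.9, 60.4 and 59.2 TPM in the libraries labelled dcKO and 73.7, 71.1, 72.6 and 78.2 TPM in ff. The groups did not overlap (log2 fold change -0.51 ± 0.06 SE, edgeR adjusted p = 5.9e-05, the lowest p of any member). Rpl7 had 1248, 1329, 1320.3 and 1227 TPM in dcKO and 1521, 1526, 1644 and 1502 TPM in ff, also without overlap (log2 fold change -0.39 ± 0.07 SE, edgeR adjusted p = 0.00094). Rps27l, a paralog of Rps27 that p53 induces, had 116, 150.1, 108 and 113 TPM in dcKO and 87.2, 109, 115 and 104 TPM in ff. The groups overlapped (log2 fold change 0.15 ± 0.14 SE, edgeR adjusted p = 0.43). Its partner Rps27 had 2100.0, 2585, 2323 and 2082 TPM in dcKO and 2275, 2379, 2576 and 2345 TPM in ff (log2 fold change -0.13 ± 0.10 SE, edgeR adjusted p = 0.34). In TPM, Rps27l stood at 5.35% ± 0.499 of Rps27 in dcKO and 4.32% ± 0.332 in ff (SD, n = 4 each), and no ff library reached the lowest of dcKO, 4.64%. Rps4l had 4.38% to 6.46% of the TPM of Rps4x in dcKO and 3.17% to 5.18% in ff, with overlap. Rpl36al, a copy of Rpl36a, was called lower (log2 fold change -0.19 ± 0.07 SE, edgeR adjusted p = 0.047), as was Rpl36a (-0.28 ± 0.09 SE, edgeR adjusted p = 0.036). Both calls were made in 2 of the 8 fits that left out a library.

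**Figure D3:**
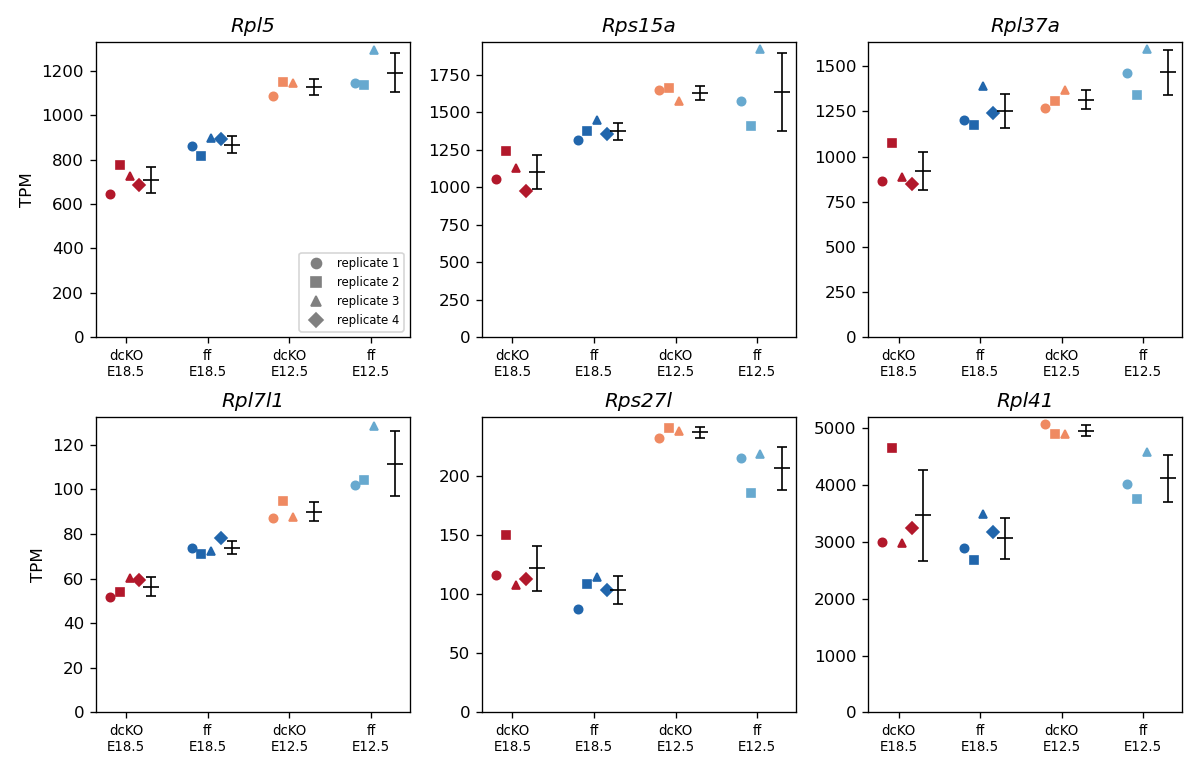
TPM of 6 members by library, with the group mean and SD beside the points (n = 4 at E18.5, n = 3 at E12.5); every axis starts at 0. At E18.5, Rpl5, Rps15a, Rpl37a and Rpl7l1 have all libraries labelled dcKO below all ff libraries, while Rps27l and Rpl41 overlap, Rpl41 with dcKO replicate 2 at 4655 TPM.

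The members called at E18.5 were not shorter than the others. The 26 standard subunits among them had a median effective length of 0.234 times that of the median gene and a median SE of 0.07, and the other 50 had 0.1801 and 0.09. Across the 76 standard subunits the log2 fold change and the effective length had a Spearman rho of -0.19 at E18.5, and across 16569 genes 0.01. These are correlations across genes, whose values share the same 8 libraries. A correction of each library for effective length gave 59 lower calls among the 87 members, with a median of -0.21. With the same correction 25.3% of all genes were lower and 12.7% higher, and the median of all genes was -0.04.

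Genes next to the ribosome in function gave mixed counts at E18.5, where 16.6% of all genes were lower and 15.6% higher. Several of the counts below are near these shares. Of ribosomal proteins outside the name rule, Rpsa (-0.41 ± 0.09 SE, edgeR adjusted p = 0.0039) and Rack1 (-0.26 ± 0.09 SE, edgeR adjusted p = 0.044) were lower, and Fau did not pass. Of 16 other TOP mRNAs, 8 were lower and 3 higher (median -0.20). The lower ones were translation factors and related genes such as Eif4b (-0.40 ± 0.05 SE, edgeR adjusted p = 5.8e-05), Eef1b2 and Eif3e. The higher ones were Pabpc1, which binds poly(A) tails, and the snoRNA host genes Gas5 and Snhg1 (0.54 ± 0.07 SE, edgeR adjusted p = 9.7e-05). Of 50 ribosome biogenesis genes, 10 were higher and 3 lower (median 0.02). The nucleolar GTPase gene Gnl3 (0.47 ± 0.06 SE, edgeR adjusted p = 0.0001) and Nop56, a snoRNP core gene (0.39 ± 0.05 SE, edgeR adjusted p = 0.00012), had the lowest p. Of 14 mTORC1 pathway genes, 4 were higher and 3 lower, the higher ones including the kinase gene Mtor (0.30 ± 0.05 SE, edgeR adjusted p = 0.00082) and Eif4ebp1, whose product binds eIF4E (0.69 ± 0.15 SE, edgeR adjusted p = 0.0040). Of 75 mitochondrial ribosomal protein genes, 19 were lower and 2 higher (median -0.09), led by Mrpl23 (-0.65 ± 0.09 SE, edgeR adjusted p = 0.00019) and Mrpl19 (-0.43 ± 0.07 SE, edgeR adjusted p = 0.00059).

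Cell type markers differed between the groups at E18.5, where 16.6% of all genes were lower and 15.6% higher. The 8 neuron markers summed to 4626 to 5210 TPM in the libraries labelled dcKO and 6638 to 6882 TPM in ff, and all 8 were lower. Of 10 apical progenitor markers 8 were higher, with sums of 2378 to 2647 TPM in dcKO and 2185 to 2299 TPM in ff. All 7 interneuron markers were higher, with sums of 646 to 855 TPM in dcKO and 349 to 412 TPM in ff, and 7 of 8 cycling cell markers were higher, with sums of 454 to 468 TPM in dcKO and 305 to 366 TPM in ff. The erythroid markers summed to 595 to 2762 TPM in dcKO and 3648 to 6196 TPM in ff, with 0 of 7 tested called. Microglia markers were higher in 4 of 5, and choroid plexus markers in 0 of 6, with 9.27 to 3346 TPM in dcKO and 1467 to 2563 TPM in ff. None of the listed markers was at 0 in a whole group. The part of these differences in the ribosomal protein values was not tested, and in whole tissue fewer cells of a type and less RNA per cell cannot be told apart.

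At E12.5 none of the 89 members tested was called in either direction between dcKO and ff, against 0.0392% of all 17853 genes tested called higher and 0.151% called lower (edgeR). DESeq2 called 1 member higher, Rpl41, and a correction for effective length gave 1 lower call, Rps15. At an unadjusted p under 0.05 there were 4 members (Rpl41, Rpl7l1, Rps15 and Rps27l), against 19.2% of all genes. This count depended on the setting, with 26 members without ff replicate 3 (3683 of 18389 genes), 25 with sex as a covariate (20.6% of all genes) and 55 after the correction for effective length (16.4% of all genes). The ff replicate 3 was the only female library at E12.5, so the fit with sex and the fit without this library are in effect the same setting. Without dcKO replicate 2 or without dcKO replicate 3, the 2 most alike libraries, no gene was called in either direction. An unadjusted p under 0.05 was then reached by 1790 of 18266 and 1723 of 18328 genes, against 3433 of 17853 with all libraries. Among the members it was reached by 3 and 1. With all libraries the median log2 fold change of the members was 0.09, against 0.01 for all genes, and 67 of 89 were above 0. This median was -0.00 without ff replicate 2 and -0.18 after the correction for effective length, so its direction depends on both. Across the 76 standard subunits the log2 fold change and effective length had a Spearman rho of -0.41, and across 16580 genes -0.44. The ff replicate 2 had the lowest CPM of ff for 68 of the 76 standard subunits, and ff replicate 3 the highest for 67.

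**Figure D4:**
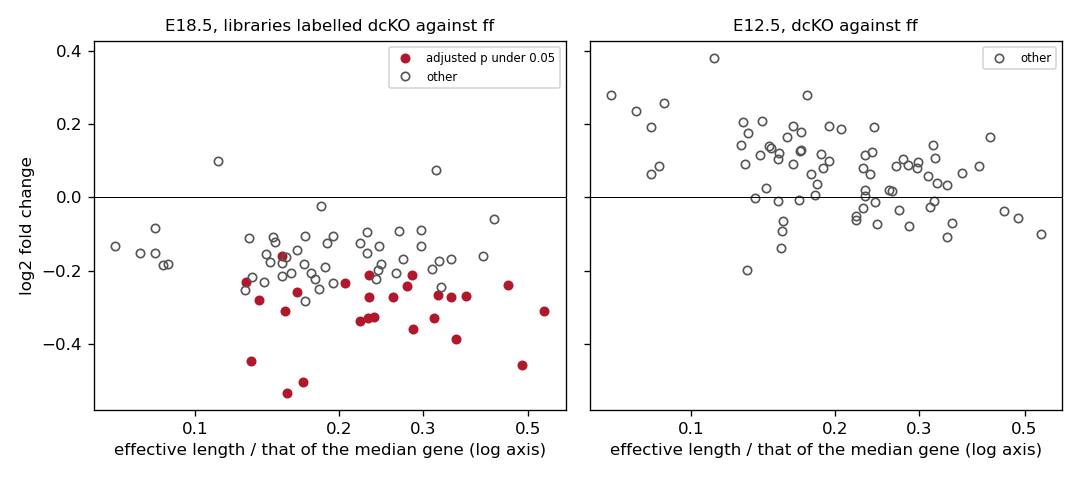
Log2 fold change of the 76 standard subunits against their effective length relative to the median gene (log axis), at E18.5 in the libraries labelled dcKO against ff (left) and at E12.5 in dcKO against ff (right). Filled points passed an adjusted p under 0.05 in edgeR. At E12.5 shorter transcripts have the higher values (rho -0.41), and at E18.5 the filled points lie at all but the shortest lengths (rho -0.19).

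The 4 members with the lowest p at E12.5 were 2 paralogs and 2 standard subunits. Rps27l had 232, 241 and 238 TPM in dcKO and 215, 186 and 218 TPM in ff, without overlap (log2 fold change 0.32 ± 0.13 SE, edgeR adjusted p = 0.22). Rpl7l1 had 87.3, 94.8 and 87.7 TPM in dcKO and 102, 104 and 128 TPM in ff, also without overlap (log2 fold change -0.21 ± 0.09 SE, edgeR adjusted p = 0.22). Rpl41 was described above (log2 fold change 0.38 ± 0.13 SE, edgeR adjusted p = 0.17). Rps15 had 2321, 2388 and 2459 TPM in dcKO and 2984, 2976 and 2945 TPM in ff. These did not overlap, but its CPM did (log2 fold change -0.20 ± 0.09 SE, edgeR adjusted p = 0.25). None of these passed the threshold, and an exact permutation test of 3 against 3 libraries cannot go below p = 0.10. Groups did not overlap in CPM for 3 members higher and 1 lower of 89, against 13.6% and 13.2% of all genes. Rpl5 had 1084, 1149 and 1146 TPM in dcKO and 1144, 1136 and 1294 TPM in ff at this stage, with overlap (log2 fold change -0.06 ± 0.10 SE, edgeR adjusted p = 0.79). Rps15a had 1648, 1663 and 1575 TPM in dcKO and 1577, 1408 and 1918 TPM in ff, with overlap (log2 fold change -0.01 ± 0.11 SE, edgeR adjusted p = 0.99). In the list of 16 other TOP mRNAs, Eif4b was called (-0.44 ± 0.06 SE, edgeR adjusted p = 0.047), and the lists of mitochondrial ribosomal proteins, ribosome biogenesis, the p53 loop and the mTORC1 pathway had no call. The erythroid markers summed to 15758 to 18355 TPM in dcKO and 12721 to 16711 TPM in ff, with overlap. Cycling cell markers summed to 1319 to 1358 TPM in dcKO and 1425 to 1683 TPM in ff, without overlap. All 8 had a log2 fold change below 0, and Mki67, a proliferation marker, was called (-0.68 ± 0.10 SE, edgeR adjusted p = 0.048). Choroid plexus markers summed to 547 to 569 TPM in dcKO and 286 to 556 TPM in ff, with a median log2 fold change of 0.51 and 0 of 6 called. The part of these markers in the members' values was not tested.

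Between the stages the members fell in both genotypes. In the libraries labelled dcKO, 83 of the 89 tested were lower at E18.5 than at E12.5 and none was higher, against 31.3% of all 19327 genes lower and 30.9% higher (edgeR). The median was -0.58, against 0.01 for all genes. In ff 47 of 89 were lower and none was higher, against 29.9% and 31.5% of all genes, with a median of -0.28, against -0.00 for all genes. The count in ff was 22 without ff replicate 3 of E12.5, where 25.8% of all genes were lower. All 47 of these members were among the 83. The stages differ in tissue as well as in age, since E12.5 was telencephalon and E18.5 cortex. The 6 members not called in dcKO were Rpl22, Rpl27rt, Rpl37rt, Rpl38, Rplp1 and Rps29.

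The 4 largest stage values by size, in each genotype, were those of the paralogs Rps23rg1, Rpl39l, Rps27l and Rpl7l1. Rps23rg1, a retroposed copy of Rps23, had 0.88, 0.21, 0.26 and 0.59 TPM in dcKO at E18.5 and 2.33, 2.75 and 3.64 TPM in dcKO at E12.5. In ff it had 0.22, 0.12, 0.20 and 0.08 TPM at E18.5 and 1.14, 2.56 and 3.41 TPM at E12.5. The log2 fold change was -3.10 in dcKO and -3.76 in ff (SE 0.39 each). Rps23rg1 and Rpl39l failed the low-count filter at E18.5 and entered this fit through their higher E12.5 counts. Their stage values are therefore descriptive, although both are among the calls in dcKO. The mean count of Rps23rg1 was 33.7, and every library had a fractional count. For Rps27l, with the TPM given above, the log2 fold change was -1.17 in dcKO (SE 0.15, edgeR adjusted p = 5.4e-06) and -0.96 in ff (SE 0.15, edgeR adjusted p = 4e-05). As a percent of Rps27 it stood at 5.35 ± 0.499 at E18.5 (SD, n = 4) and 7.56 ± 0.118 at E12.5 (SD, n = 3) in dcKO, and at 4.32 ± 0.332 at E18.5 (SD, n = 4) and 7.03 ± 0.491 at E12.5 (SD, n = 3) in ff. Rpl7l1 had -0.98 in dcKO (SE 0.07, edgeR adjusted p = 7.7e-09) and -0.65 in ff (SE 0.07, edgeR adjusted p = 7.8e-07).

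Standard subunits with the lowest p between stages included Rps6, Rpl5 and Rps9 in dcKO and Rpl8 in ff. Rps6 had 1622, 1722 and 1719.8 TPM in dcKO and 1559.9, 1642 and 1763 TPM in ff at E12.5, all above the E18.5 libraries of the same genotype given above. Its log2 fold change was -0.85 in dcKO (SE 0.09, edgeR adjusted p = 2.9e-07) and -0.51 in ff (SE 0.09, edgeR adjusted p = 7.8e-05). Rpl5 had -0.84 in dcKO (SE 0.09, edgeR adjusted p = 4.5e-07) and -0.39 in ff (SE 0.09, edgeR adjusted p = 0.00099). Rps9, of the small subunit, had -0.68 in dcKO (SE 0.08, edgeR adjusted p = 1e-06) and -0.40 in ff (SE 0.08, edgeR adjusted p = 0.00025). Rpl8, of the large subunit, had -0.66 in dcKO (SE 0.08, edgeR adjusted p = 1.3e-06) and -0.48 in ff (SE 0.08, edgeR adjusted p = 3.7e-05). Rpl22 was called in neither genotype, with -0.15 in dcKO (SE 0.08, edgeR adjusted p = 0.11) and 0.18 in ff (SE 0.08, edgeR adjusted p = 0.062). Its TPM at E12.5 were 683, 699 and 663 in dcKO and 885, 606 and 757 in ff. All of these lie above the E18.5 libraries of the same genotype given above. In ff the direction in counts was thus opposite to that in TPM. Rplp1 had -0.20 in dcKO (SE 0.14, edgeR adjusted p = 0.24) and 0.04 in ff (SE 0.14, edgeR adjusted p = 0.81).

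Genes of the related lists were also called between the stages. Of all genes, 31.3% were lower and 30.9% higher in dcKO, and 29.9% lower and 31.5% higher in ff. Of 50 ribosome biogenesis genes, 34 were lower and 2 higher in dcKO, and 32 lower and 3 higher in ff, led by Dkc1, the pseudouridine synthase of H/ACA particles, at -0.91 in dcKO and -1.10 in ff. Of 75 mitochondrial ribosomal protein genes, 67 were lower in dcKO and 41 in ff. Of 16 other TOP mRNAs, 13 were lower in dcKO and 8 in ff. All 8 markers of cycling cells were lower in each genotype (median -1.81 in dcKO and -2.52 in ff), and 8 of 10 erythroid markers were lower in dcKO and 7 of 10 in ff. Neuron markers were higher in 7 of 8 in dcKO and in 8 of 8 in ff. Their part in the fall of the members was not tested.

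The difference between the genotypes in their stage change, the genotype by stage interaction, was called for 8 of 89 members (8.99%), all lower. Of all genes, 9.41% were lower and 7.12% higher (edgeR), so the members' count was near the share of all genes. The 8 included Rpl5, Rpl7, Rpl7l1, Rpl10, Rps15a and Rps27a. Of 75 mitochondrial ribosomal protein genes, 21 were lower (median -0.28). The median over members was -0.33, against -0.03 for all genes, and 87 of 89 members had the lower stage value in dcKO. Rps15a was the strongest, with a stage value of -0.57 in dcKO (SE 0.09) and -0.02 in ff (SE 0.09) and an interaction of -0.54 (SE 0.13, edgeR adjusted p = 0.013). Rpl5 had an interaction of -0.44 (SE 0.12, edgeR adjusted p = 0.025), Rpl10 -0.44 (SE 0.13, edgeR adjusted p = 0.03) and Rpl7l1 -0.33 (SE 0.10, edgeR adjusted p = 0.038). After the correction for effective length Rps15a alone was called (-0.26, edgeR adjusted p = 0.046), and the median was -0.077. Rps15a was also called in all 14 fits that left out a library, which gave 1 to 40 calls in all. The count was 40 without dcKO replicate 2 of E18.5 (1957 of 19252 genes lower) and 31 without ff replicate 3 of E12.5 (1677 of 20235 genes lower). It was 1 without dcKO replicate 2 or 3 of E12.5, ff replicate 2 of E12.5, dcKO replicate 4 of E18.5 or ff replicate 3 of E18.5. In these last fits 1016 to 1683 of all genes were lower.

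**Figure D5:**
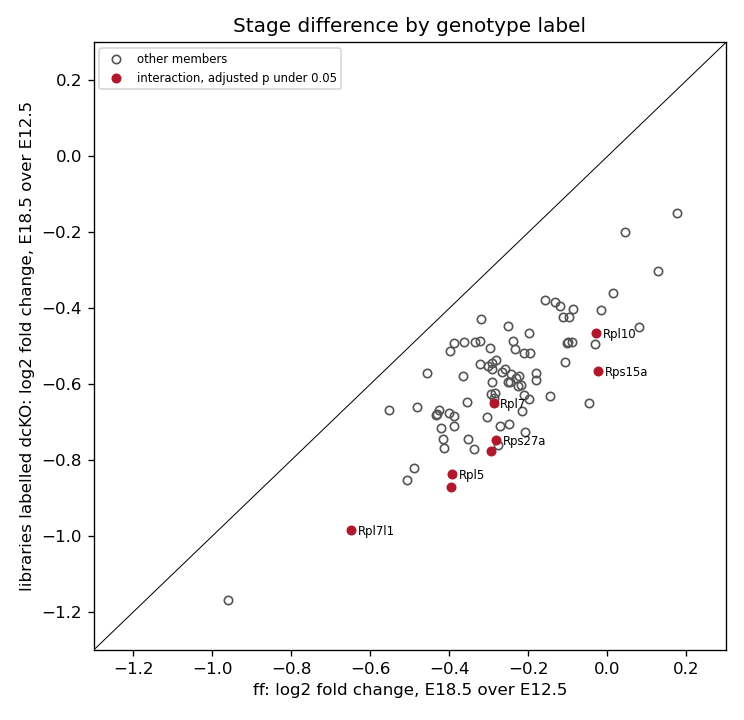
Log2 fold change of E18.5 over E12.5 for each member, in dcKO (vertical axis) against ff (horizontal axis); the line marks equal values, and Rps23rg1 and Rpl39l lie outside the axes. Most points lie below the line, and the 8 filled points passed the interaction test at an adjusted p under 0.05 in edgeR; the 2 values of a point come from the same 14 libraries in 1 fit.

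The genes outside the family whose log2 CPM followed the mean of the 76 standard subunits most closely over the 14 libraries were Btf3 (Pearson r 0.994), Tpt1 (0.991) and Psma6 (0.990), with no test, since they were picked for this value and the differences between the 4 groups enter it. Btf3 encodes a subunit of the nascent polypeptide-associated complex, which works at the ribosome exit. It averaged 646 ± 52.0 TPM in dcKO and 722 ± 35.6 TPM in ff at E18.5 (SD, n = 4 each), and 896 ± 15.5 TPM in dcKO and 859 ± 60.6 TPM in ff at E12.5 (SD, n = 3 each). Tpt1, a known TOP mRNA, averaged 3382 ± 188 TPM in dcKO and 3732 ± 305 TPM in ff at E18.5 (SD, n = 4 each). Psma6 encodes a subunit of the proteasome.

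Reads that fit several copies of a gene bear on these values. The counts were deposited with up to 2 decimals, and a value was taken as whole only where its decimals were exactly 0. Of those of the standard subunits, 91.7% were fractional, the mark of reads shared out between loci, against 12.8% for the 17991 genes with a mean count of at least 10. For 65 members every library had a fractional count. Rpl8, Rps3, Rps4l, Rps21 and Rps27l were among those that had whole counts in every library at a mean count of at least 10. The 322 rows named as pseudogenes (-ps) of ribosomal protein genes summed to 1.12% to 1.74% of the members' TPM in dcKO and 1.49% to 1.68% in ff at E18.5, and 1.25% to 1.63% in dcKO and 1.13% to 1.71% in ff at E12.5. This naming rule also admits pseudogenes of Rpsa. Pseudogenes under other kinds of names were not counted, so the shared reads may be more than these shares. Adding the counts of these rows to their parent genes gave 29 lower calls among the members at E18.5. Members with near-identical copies, such as Rpl36a and Rpl36al, Rps27 and Rps27rt or Rps3a1 and Rps3a2, are therefore less certain than the others.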

How the data were processed

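The authors deposited RSEM expected counts, not normalized, and the matching TPM values for each gene, per the file headers. Trim Galore, STAR, RSEM and DESeq2 were used per the submitters' processing notes, and the genome build is not given in the sources used here. The log2 fold changes and adjusted p-values of the authors' deposited table were used for gene symbols and for a count comparison. Each column was assigned by the genotype and stage in its name, and replicate numbers are column order. In most samples the library name in the description belongs to a sample whose title gives another group. The sources used here do not settle which is right. Counts were rounded, filtered (filterByExpr), scaled by TMM and tested with edgeR 4.0.16 (robust quasi-likelihood, R 4.3.3), each stage in its own fit. Stage and interaction tests came from 1 fit of 14 libraries. P-values were adjusted by Benjamini-Hochberg over all genes. DESeq2 1.42.0, limma-voom (limma 3.58.1), other scalings and filters, sex, effective length (spline, 5 degrees of freedom), pseudogene rows and each library left out were alternatives. Members, gene lists and tests were chosen with earlier results of these data known. Named members were the 4 with the lowest p per direction and comparison, a fixed list by role, and the highest and lowest in TPM; other genes were the 2 with the lowest p per list, and further examples were chosen after their values were seen. Some genes are not reported here.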

Additional observations from a re-analysis of the deposited data

Results flagged for a closer look

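At E18.5, 66 groups of 4 libraries were screened for a library far from the other 3, and 4 stood out, where chance flags about 1 group in 20. The dcKO replicate 2 had 3.24% of its counts in the ribosomal protein genes and 4655 TPM of Rpl41, both above the other 3 libraries labelled dcKO. The dcKO replicate 1, the shallow library, had 1032 TPM of Rpl4, below the others, and ff replicate 3 had 1236 TPM of Rpl3, above the others.

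The stage change differed between dcKO and ff in 8 members of 89 (8.99%) by the interaction term in edgeR, all lower. This share was near the 9.41% of all genes, and leaving out a single library gave 1 to 40 calls. On the log2 scale the interaction was, among others, -0.54 for Rps15a, -0.47 for Rps27a, -0.44 for Rpl5, -0.44 for Rpl10, -0.36 for Rpl7 and -0.33 for Rpl7l1. After the correction for effective length only Rps15a was called.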

How the results depend on the processing

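No paired analysis was possible because the columns carry no replicate number that the groups share. At E18.5 the 28 lower calls became 13 with library totals alone (and 1 higher call), 59 with the effective length correction, and 16 to 63 when a library was left out; their median was -0.29 to -0.15. At E12.5, 0 calls became 1 higher with DESeq2 and 1 lower with the length correction, where the median was -0.18; leaving out a library gave 0 calls and medians of -0.00 to 0.18. The stage change in dcKO had 1 higher call with no filter (Rpl3l) and a median of -0.38 with the length correction, and 80 to 86 lower calls in fits without a library. In ff, 1 member (Rpl22) was called higher with DESeq2 and with both shallow libraries left out, although its TPM were lower at E18.5. Lower calls in ff were 73 with the length correction, and fits without a library gave 0 to 1 higher and 22 to 57 lower calls. The 8 interaction calls became 4 with RLE and 4 with upper quartile scaling, 1 with library totals, 17 with DESeq2, 3 with no filter, 5 with sex as a covariate, 1 with the length correction (median -0.077), 3 without both shallow libraries, and 1 to 40 without a library. The causes were not tested. Of 3455 values of named members under alternatives, 3038 kept the call or, uncalled, moved by less than 1 SE, 178 lost the call, 91 gained it and 148 uncalled ones moved by more, with no call reversed. These values include exact permutation tests, which at E12.5 cannot go below p = 0.10 and so could not gain a call. A change of sign in an uncalled value was not counted as reversed.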

Other observations

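The authors' deposited table lists 43 members lower and 0 higher at E18.5 at an adjusted p under 0.05, and 0 lower and 1 higher at E12.5. The edgeR fits gave 28 and 0 at E18.5, and 0 and 0 at E12.5. The sign of the fold change in the authors' deposited table was the same as in the edgeR fit for 87 of 87 members at E18.5 and 88 of 89 at E12.5.

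The 13 standard subunits whose annotated start carries the TOP motif and the 43 without it in RefSeq had medians of -0.17 and -0.21 at E18.5 in the libraries labelled dcKO against ff, and 0.11 and 0.08 at E12.5 in dcKO against ff, with no test.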
